A study of Mus musculus with 8 samples.

Results

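The cytosolic ribosomal protein genes were followed in RNA of mouse lung before and after birth. They were taken as the genes named Rpsa or beginning with Rps, Rpl, Rplp and a digit, leaving out named pseudogenes and the S6 kinase genes, and 86 of the 25965 deposited genes met this rule. Of these, 31 encode proteins of the small subunit, 43 proteins of the large subunit and 3 the stalk of the large subunit (Rplp0, Rplp1 and Rplp2), and these 77 are called the core genes. A further 8 are paralogs of core genes (Rps27l, Rps4y2, Rpl3l, Rpl7l1, Rpl10l, Rpl22l1, Rpl36al and Rpl39l). The last, Rps19bp1, encodes a binding partner of Rps19 that is no part of the ribosome and carries the prefix only in its name. Fau and Gnb2l1 also encode proteins of the cytosolic ribosome but are named otherwise, and they are given beside the others.

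Total lung RNA was sequenced from Wfdc2 +/+ and Wfdc2 GFP/GFP mice at E18.5, before birth, and at P1.5, after birth, with 2 libraries in each of the 4 groups. In the GFP allele, a GFP cassette replaces part of exon 1 and the whole of exon 2 of Wfdc2, which encodes a secreted protease inhibitor, so that GFP/GFP mice are knockouts in every tissue and not in lung epithelium alone. The series describes its experiments as done with duplicate animals, and lungs were taken whole. No agent was given to any group. The study asked what loss of Wfdc2 does to gene expression in the lung around birth.

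Each ribosome needs 1 copy of nearly every ribosomal protein, and cells therefore make these proteins in balanced amounts. The stalk, in which Rplp0 carries pairs of Rplp1 and Rplp2, recruits translation factors. Transcripts for these proteins are among the most abundant of any growing cell and start with a run of pyrimidines, the terminal oligopyrimidine tract, through which the mTOR pathway controls their translation. Paralogs such as Rpl3l of striated muscle and Rpl10l and Rpl39l of testis can take the place of the common protein in a few tissues.

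Wfdc2 was checked first. It had 8038 and 8791 reads in replicates 1 and 2 of E18.5 Wfdc2 +/+, and 32845 and 10212 reads in those of P1.5 Wfdc2 +/+. In the GFP/GFP libraries it had 0 and 1 reads at E18.5 and 12 and 0 reads at P1.5. The genotypes did not overlap at either stage, and with limma the adjusted p was 0.0394 at E18.5 and 0.0362 at P1.5, whereas with voom on the reads it was 0.184 and 0.137. At E18.5 the level was at least 2814-fold lower in GFP/GFP lungs when 3 reads per library are taken as the limit of detection.

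The total reads behind each library ran from 19457647 to 37209333. The deposited values are log2 RPKM, reads scaled by gene length in kilobases and by the total of the library, on a log2 scale, in which the kilobases are the whole span of the gene with introns. A difference between libraries on this scale does not depend on that length. Where a gene had no reads, 0.9 read stands in the deposited value, and its difference between groups is that of the library totals alone (0.51 on the log2 scale between stages), and 529 of the 15627 genes tested had no reads in any library. Medians, directions and unadjusted calls of other genes are therefore given over the 14197 genes that averaged 10 or more reads per library, called genes with reads, a limit added after the values were seen. Of the 86 ribosomal protein genes, 84 are among these 14197. Calls after adjustment are given over all 15627, which hold all 86. Ribosomal protein genes are short, with a median coding length of 453 bases against 1197 for all genes with a coding sequence and a median span of 3237.5 against 13356 bases.

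Libraries of the same group did not always resemble each other, and P1.5 Wfdc2 +/+ replicate 2 stood apart from the other P1.5 libraries. Markers of mesenchyme (6 genes, of which Col3a1 was the most abundant) took 0.638% of the reads in that library, against 0.0901% in P1.5 Wfdc2 +/+ replicate 1 and 0.151% and 0.216% in the P1.5 GFP/GFP libraries. At E18.5 they took 0.413% and 0.467% in Wfdc2 +/+ and 0.592% and 0.382% in GFP/GFP. For these markers, P1.5 Wfdc2 +/+ replicate 2 thus lay above every E18.5 library, while the other P1.5 libraries lay below. Among the E18.5 libraries, GFP/GFP replicate 1 was low in markers of epithelium (12 genes, led by Sftpc), with 0.932% of the reads against 2.05% to 2.57% in the other E18.5 libraries, and high in markers of proliferating cells (8 genes, led by Top2a), with 0.162% against 0.0614% to 0.0835%. Markers of proliferating cells took 0.0616% in P1.5 Wfdc2 +/+ replicate 2 and 0.0166%, 0.0223% and 0.0406% in the other P1.5 libraries. Markers of immune cells (10 genes, led by S100a9) took between 0.00587% and 0.00948% at E18.5 and between 0.0515% and 0.156% at P1.5. Those of red blood cells (7 genes, led by Hbb-b1) took between 0.211% and 0.725% and between 0.768% and 1.39%, and those of endothelium (5 genes, led by Pecam1) between 0.134% and 0.178% and between 0.0586% and 0.164%. No marker of these lists was at 0 reads in every library, and Sftpc of alveolar type II cells was the most abundant gene in 7 of the 8 libraries, as the lung label has it. Results that rest on P1.5 Wfdc2 +/+ replicate 2 or E18.5 GFP/GFP replicate 1 are given with and without the library.

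The core genes were more abundant in 3 of the 4 P1.5 libraries than in any E18.5 library. All 86 genes together took 7.71% and 7.84% of the reads in E18.5 Wfdc2 +/+, 6.75% and 10.04% in E18.5 GFP/GFP, 17.6% and 8.48% in P1.5 Wfdc2 +/+ and 15.4% and 12.3% in P1.5 GFP/GFP. The 2 Wfdc2 +/+ libraries of P1.5 lay farther apart than the replicates of any other group, and replicate 2 lay among the libraries of E18.5. The mean share was 8.09% ± 1.39 at E18.5 and 13.4% ± 3.95 at P1.5 (SD, n = 4 each), a difference of 5.35 percentage points that ran from 3.97 to 6.996 when each library was left out in turn. GFP/GFP lungs differed from Wfdc2 +/+ lungs by 0.62 points at E18.5, more than the spread of the Wfdc2 +/+ replicates (SD 0.0931, n = 2) but less than that of the GFP/GFP replicates (SD 2.33, n = 2). At P1.5 they differed by 0.82 points, less than either spread (SD 6.42 and 2.22, n = 2 each). Small-subunit genes took 3.35% ± 0.629 and 5.97% ± 1.88 of the reads at the 2 stages and large-subunit genes 4.32% ± 0.698 and 6.72% ± 1.88 (SD, n = 4), so that neither subunit accounted for the difference alone. Markers of epithelium, of which Sftpc was the most abundant and none was at 0 in every library, took 7.37% and 3.77% of the reads in P1.5 Wfdc2 +/+ and 8.35% and 6.33% in P1.5 GFP/GFP, or 6.46% ± 1.97 at P1.5 against 1.99% ± 0.738 at E18.5 (SD, n = 4 each). Each P1.5 library lay above every E18.5 library in this share, and E18.5 GFP/GFP replicate 1 and P1.5 Wfdc2 +/+ replicate 2 were the lowest of their stages, as they were in the share of the ribosomal protein genes. This order rested on the most abundant genes. With the 10 most abundant genes left out, Sftpc among them, the epithelial share was 0.39% and 0.54% in P1.5 Wfdc2 +/+ and 0.98% and 0.997% in P1.5 GFP/GFP. At E18.5 it was then between 0.23% and 0.49%, and P1.5 Wfdc2 +/+ replicate 1 was the lowest of its stage. Over the 12 epithelial genes the median stage difference was 0.0084 on the log2 scale, with 7 positive, and the part of the epithelium in the result was not tested. In a bulk sample, more cells of a type that is rich in these transcripts and more of the transcripts per cell cannot be told apart.

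**Figure D1:**
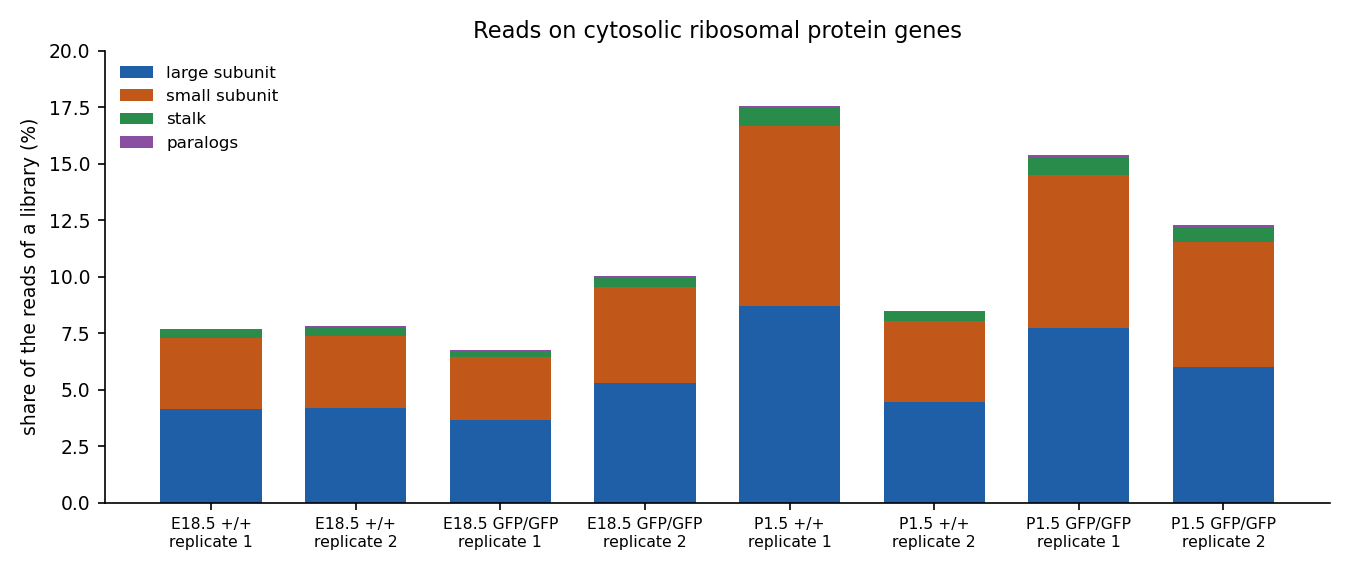
Share of the reads of each library, in percent, on large-subunit, small-subunit, stalk and paralog genes, stacked, with 1 bar per library. The share ran from 6.75% in E18.5 GFP/GFP replicate 1 to 17.6% in P1.5 Wfdc2 +/+ replicate 1, and P1.5 Wfdc2 +/+ replicate 2, at 8.48%, stood among the E18.5 libraries.

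Gene by gene, the same order of libraries was seen. Against its own mean in E18.5 Wfdc2 +/+, the median core gene stood at -0.19 and 0.40 on the log2 scale in E18.5 GFP/GFP replicates 1 and 2. It stood at 1.15 and 0.16 in P1.5 Wfdc2 +/+ and at 1.08 and 0.67 in P1.5 GFP/GFP. The median of all other genes with reads moved the opposite way in the libraries where the core genes were highest, to -0.58 in P1.5 Wfdc2 +/+ replicate 1 and to -0.51 in P1.5 GFP/GFP replicate 1. That median stood at 0.18 and 0.12 in E18.5 GFP/GFP replicates 1 and 2, and at 0.13 and -0.24 in replicate 2 of P1.5 Wfdc2 +/+ and GFP/GFP. With values scaled by the library total, a larger share for some genes lowers the rest, and the size of this part was not tested. P1.5 Wfdc2 +/+ replicate 1 held the highest value of 49 of the 77 core genes and P1.5 GFP/GFP replicate 1 that of 22, whereas E18.5 GFP/GFP replicate 1 held the lowest value of 56. The genes of a library thus moved together, and a difference in 1 library is shared by most of them.

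**Figure D2:**
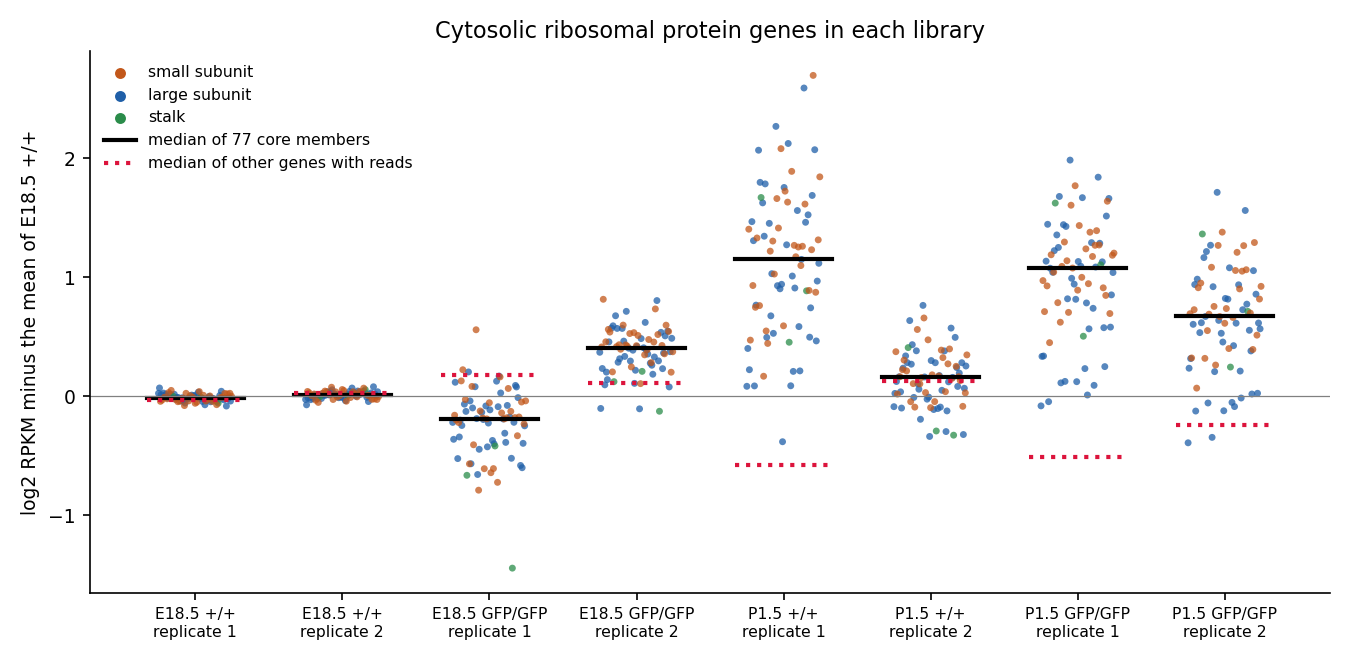
Each point is 1 of the 77 core genes in 1 library, as log2 RPKM minus the mean of that gene in E18.5 Wfdc2 +/+; black lines are medians over the core genes and dotted red lines medians over all other genes with reads. The core genes stood highest in P1.5 Wfdc2 +/+ replicate 1 (median 1.15) and P1.5 GFP/GFP replicate 1 (1.08), where the other genes stood lowest (-0.58 and -0.51).

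The first comparison was between stages, averaged over the genotypes. With limma, 2 of the 86 genes were higher at P1.5 at an adjusted p under 0.05 and none was lower, against 2.58% of the 15627 genes tested that were called higher and 2.56% that were called lower, and 42 of the 86 (48.8%) were higher at an unadjusted p under 0.05, against 12.7% of genes with reads, while none was lower at that p, against 28.9%. The share called after adjustment was thus near that of all genes. With the test run on genes with reads alone, Rpl38, Rpl3l, Rpl36al and Rps19bp1 were higher, or 4.76% of the 84 tested against 5.8%. The median difference over the 86 genes was 0.75 on the log2 scale, against -0.38 over genes with reads, and 80 of the 86 had a positive difference, against 33%. All 31 small-subunit genes had positive differences (median 0.80), as did 38 of 43 large-subunit genes (0.69), the 3 stalk genes (0.99) and 7 of 8 paralogs (0.40), whereas after quantile normalization 18 of the 31 and 23 of the 43 were positive. In 12 of the 86 genes (14%) every P1.5 library lay above every E18.5 library, against 7.5% of genes with reads, and in none every one lay below, against 14.8%.

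The size of this difference depended on how libraries were scaled. With each library centred on the median of the genes tested, the median over the 86 genes was 1.22 and that over genes with reads 0.09. With a total that leaves out the ribosomal protein genes and the 10 most abundant genes, the medians were 0.92 and -0.21. After quantile normalization they were 0.07 and -0.12, and 48 of the 86 genes had positive differences, with 3 called higher (against 4.54% of all genes) and 2 lower (against 3.63%).

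How many genes passed the test depended most on P1.5 Wfdc2 +/+ replicate 2. Without it, 49 of the 86 genes (57%) were higher at P1.5 and none was lower, against 10.6% and 35% of all genes, and the median rose to 0.98. The 49 genes comprised 22 large-subunit, 21 small-subunit and 2 stalk genes, 3 paralogs and Rps19bp1. Every P1.5 library then lay above every E18.5 library in 63 genes (73.3%), against 11.5% of genes with reads. Without P1.5 Wfdc2 +/+ replicate 1 in its place, 2 genes were called (against 1.89% of all genes) and the median was 0.49. Without E18.5 GFP/GFP replicate 1, 1 gene was called (against 0.294%) and the median was 0.63. Which genes passed also changed when other single libraries were left out, among the 86 as among all genes. The median ran from 0.49 to 0.98 when each library was left out in turn.

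Rpl38, a large-subunit protein that is needed for normal patterning of the mouse skeleton, was the core gene that rose. It lies at chr11:114668524-114672331 (mm10) and stood at 6.47 and 6.51 log2 RPKM in E18.5 Wfdc2 +/+, 6.36 and 6.90 in E18.5 GFP/GFP, 8.76 and 7.26 in P1.5 Wfdc2 +/+ and 8.48 and 8.21 in P1.5 GFP/GFP. All P1.5 libraries lay above all E18.5 libraries. The difference was 1.62 (SE 0.36), or 3.06-fold, with an adjusted p of 0.0474 that ran from 0.0053 to 0.172 over the other settings and left-out libraries, and its direction was the same in all of them.

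Several other genes for very small proteins had differences of nearly the same size and missed the threshold. Rpl37a stood at 7.92 and 7.999 log2 RPKM in E18.5 Wfdc2 +/+, 7.79 and 8.76 in E18.5 GFP/GFP, 10.55 and 8.53 in P1.5 Wfdc2 +/+ and 9.80 and 9.52 in P1.5 GFP/GFP. The stages overlapped by 1 library of each, and the difference was 1.48 (SE 0.47, adjusted p = 0.0724). Rpl41, which at 75 bases has the shortest coding sequence of all, stood at 9.65, 9.67, 9.10 and 9.95 in the E18.5 libraries and at 11.45, 10.10, 11.34 and 10.88 in the P1.5 libraries, without overlap. Its difference was 1.35 (adjusted p = 0.0682). Rps21 (1.34, adjusted p = 0.0704) and Rps29 (1.21, adjusted p = 0.0611) of the small subunit were similar in size. Rpl39, with a coding sequence of 153 bases, moved less. It stood at 7.84, 7.70, 7.41 and 7.67 in the E18.5 libraries and at 8.18, 7.80, 8.11 and 8.01 in the P1.5 libraries, and the stages overlapped.

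Rps14, at the platform of the small subunit, had more reads than any other gene of the set, 738421 over the 8 libraries, and the widest gap between replicates. It stood at 8.70 and 8.65 log2 RPKM in E18.5 Wfdc2 +/+, 8.50 and 9.27 in E18.5 GFP/GFP, 11.37 and 8.80 in P1.5 Wfdc2 +/+ and 10.31 and 9.96 in P1.5 GFP/GFP. The P1.5 Wfdc2 +/+ replicates thus differed by more than the stages did (1.33, SE 0.55, adjusted p = 0.117). The other genes with the most reads were Rpl13a (0.97, adjusted p = 0.0895), Rps4x (0.33, 0.371), Rpsa (0.84, 0.123), whose product also binds laminin at the cell surface, and Rps3a (0.78, 0.1). Rpl13a overlaps Flt3l on the same strand.

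The 3 stalk genes had positive stage differences, and none passed the threshold. Rplp1 stood at 9.91, 9.90, 9.24 and 10.03 log2 RPKM in the E18.5 libraries and at 11.58, 10.32, 11.53 and 11.27 in the P1.5 libraries, and the stages did not overlap (1.40, SE 0.40, adjusted p = 0.0624). Rplp0, which anchors the stalk, stood at 8.89, 8.91, 8.48 and 9.11 and at 9.35, 8.61, 9.41 and 9.15, and the stages overlapped (0.28, adjusted p = 0.496). Rplp2, the partner of Rplp1, was lowest in E18.5 GFP/GFP replicate 1 at 5.92 and between 7.24 and 7.42 in the other E18.5 libraries, and stood at 8.25, 7.04, 8.47 and 8.08 at P1.5 (0.99, adjusted p = 0.109).

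A few core genes, all of the large subunit, did not share the difference. Rpl4 stood at 8.12, 8.26, 8.36 and 8.58 log2 RPKM in the E18.5 libraries and at 8.40, 8.10, 8.21 and 8.11 in the P1.5 libraries. Rpl3, which helps to form the peptidyl transferase centre, stood at 7.93, 8.02, 8.10 and 8.38 and at 8.07, 7.87, 8.21 and 7.93. Rpl10, a late-joining protein at the same centre, stood at 9.40, 9.35, 9.16 and 9.75 and at 9.46, 9.29, 9.30 and 8.99. In each of these the stages overlapped, and the libraries with the highest values of other core genes were not the highest. The differences were -0.13 for Rpl4, -0.09 for Rpl3, -0.16 for Rpl10 and -0.18 for Rpl6 (adjusted p 0.7, 0.787, 0.691 and 0.602), and all of these turned positive with median centring, while after quantile normalization Rpl3 and Rpl10 were called lower, at -0.73 and -0.89. Rpl7, at -0.03, was the remaining core gene with a negative difference.

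**Figure D3:**
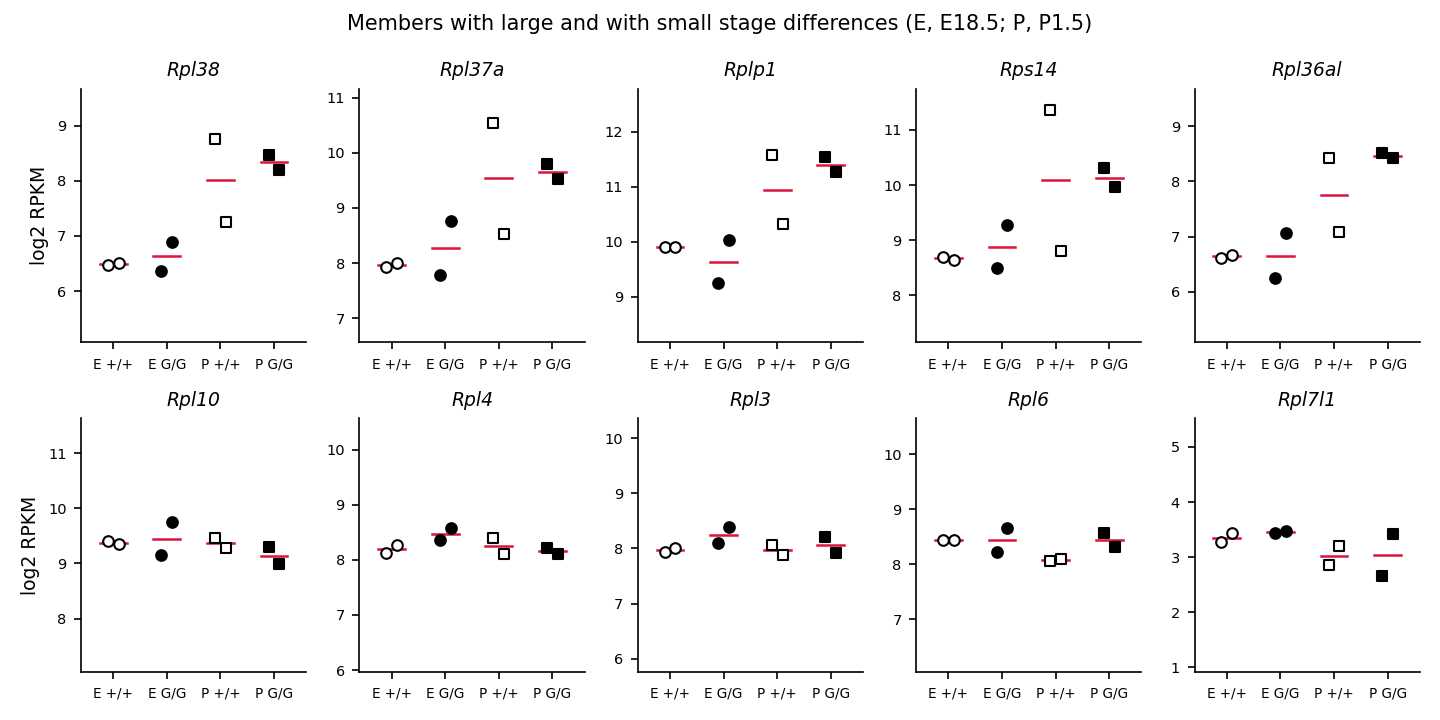
Log2 RPKM of 5 genes with large and 5 with small stage differences in each library, as circles (E18.5) or squares (P1.5), open for Wfdc2 +/+ and filled for GFP/GFP, with group means in red; all panels span the same log2 range. Rpl38 and Rplp1 separated the stages, the Rps14 values of P1.5 Wfdc2 +/+ (11.37 and 8.80) lay far apart, and Rpl4, Rpl3 and Rpl10 overlapped.

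Coding length ordered the stage differences, among the ribosomal protein genes and among all others. This axis was chosen after the values were seen. The median difference was 1.28 over the 10 genes of up to 300 bases, 0.85 over 31 genes of up to 450, 0.70 over 19 of up to 600, 0.35 over 21 of up to 900 and 0.09 over 4 of up to 1500. Over all other genes with reads it was 0.66, 0.43, 0.16, -0.04 and -0.31 in the same classes, and it went on to -0.60 up to 3000 bases and -0.88 above. The medians of the ribosomal protein genes thus lay above those of other genes of their length in each class that held them. Both fell with length, and their slopes were not compared. Across the 77 core genes, which share libraries and are not independent replicates, the difference correlated with the log2 of coding length at r = -0.57 (Spearman's rho -0.55) and with the log2 of genomic span at r = -0.14 (rho -0.12). With the log2 of annotated mRNA length it correlated at r = -0.39 (rho -0.47).

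Centring each library within classes of coding length, a setting added after the data were seen, left a median stage difference of 0.55 over the 86 genes, and 79 of the 86 positive. Rpl3l alone was then called higher, against 4.38% of all genes. With the classes and the test confined to genes with reads, the median was 0.54 over 84 genes, of which 77 were positive, against 0.06 over genes with reads, and Rpl3l alone was again called, against 7.37%. RNA integrity was not analysed here, and the part of length, of RNA quality and of the cell types in the result was not tested.

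**Figure D4:**
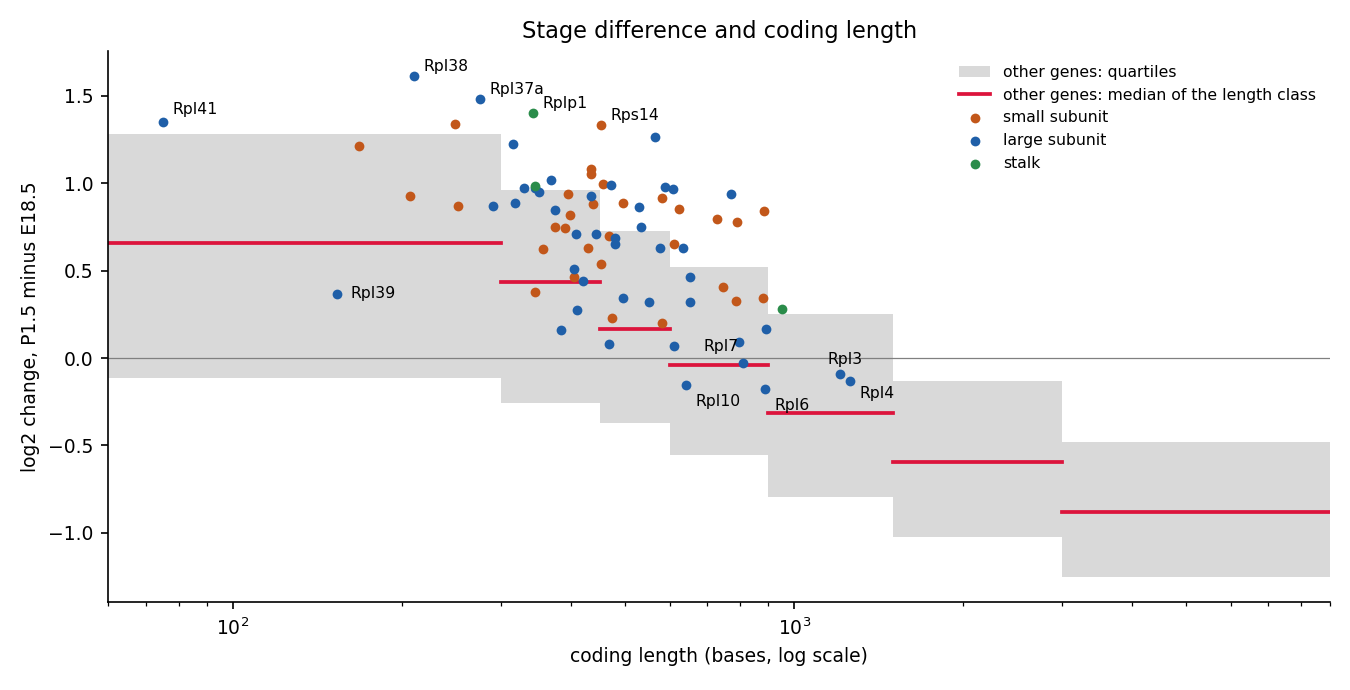
Stage difference (log2, P1.5 minus E18.5, averaged over genotypes) of the 77 core genes against coding length in bases on a log axis; grey bands span the quartiles and red lines the median of all other genes with reads in the same length class. Both fell with length, from 0.66 to -0.88 for the other genes, and Rpl38 (1.62) and Rpl4 (-0.13) were near the ends of the range of the core genes.

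The start sites of the genes at these ends are shown because a pyrimidine run at the start defines these transcripts as a class. Each window holds the 15 bases before the RefSeq start and 15 bases from it on, 5′ to 3′ on the strand of the gene in GRCm38.p6, and capitals mark the longest run of C and T in it. Where a gene has several RefSeq starts, the start with the longest run is shown. The first 3 are genes with the largest differences among the core genes in the table of starts, and the last 2 are genes with differences near 0.
Rpl38: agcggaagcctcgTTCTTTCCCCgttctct
Rpl37a: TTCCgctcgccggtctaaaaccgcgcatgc
Rpl41: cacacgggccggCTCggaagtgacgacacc
Rpl4: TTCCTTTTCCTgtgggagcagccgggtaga
Rpl6: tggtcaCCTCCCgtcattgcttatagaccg
They lie at chr11:114668565-114668594 (+), chr1:72711245-72711274 (+), chr10:128549154-128549183 (-), chr9:64173372-64173401 (+) and chr5:121204486-121204515 (+). The longest runs were 10, 4, 3, 11 and 6 bases. Only the run of Rpl38 crosses the RefSeq start, and those of Rpl37a, Rpl41, Rpl4 and Rpl6 lie wholly before it. Long and short runs in the window thus occurred at both ends of the stage difference, and most of them are not within the annotated transcript.

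A window was found for 57 of the 77 core genes. For core and other genes alike, the start with the longest run was taken, so that genes with more annotated starts had more chances of a long run. The number of starts per gene was not compared. A run of at least 7 pyrimidines lay in 31 of them (54.4%), against 21.2% of the windows of 26960 other genes. The median stage difference was 0.85 over the 31 genes with such a run and 0.73 over the 26 without. In the 300 bases from 250 before to 50 after the start, read on both strands, CCGGAAG was present in 42.1% of the core genes against 9.86% of other genes, GGGCGG in 61.4% against 38.1%, and AAGATGGC in 8.77% against 3.18%. A gene was counted if the letters lay at any of its starts. These are matches of letters and say nothing of what binds there.

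Within Wfdc2 +/+ lungs alone, no gene of the set passed the adjusted threshold between stages with limma or with voom, against 0.0256% of all genes called higher with limma and 0.032% called lower, and 8 of the 86 were higher at an unadjusted p under 0.05, against 6.78% of genes with reads, and none lower, against 5.18%. Both P1.5 libraries lay above both E18.5 libraries in 61 genes, against 23.3% of genes with reads, and below in 2, against 30.4%. The median difference was 0.64 over the 86 genes and -0.21 over genes with reads, and it ran from 0.16 without P1.5 replicate 1 to 1.13 without P1.5 replicate 2, where 13 genes were called higher and none lower (against 3.52% and 10.3% of all genes), and was 0.08 after quantile normalization. Within GFP/GFP lungs, 2 of the 86 genes were higher and none was lower, against 1.61% and 2.94% of all genes, and 16 were higher at an unadjusted p under 0.05, against 10.2% of genes with reads, and none lower, against 27.9%. Both P1.5 libraries lay above both E18.5 libraries in 65 genes, against 19.6%, and below in 3, against 52.4%. The median difference was 0.75 over the 86 genes and -0.55 over genes with reads, and -0.03 over the 86 after quantile normalization, where 2 genes were called higher (against 2.41% of all genes) and 3 lower, Rpl5, Rpl10 and Rpl15 (against 2.11%). The count was 14 without P1.5 Wfdc2 +/+ replicate 1 (against 7.29% of all genes), 11 without P1.5 Wfdc2 +/+ replicate 2 (against 7.28% called higher and 23.8% called lower), 5 without E18.5 GFP/GFP replicate 2 (against 6.94%) and 0 without any 1 of the remaining 5 libraries. Without any 1 of these 5 libraries, calls within GFP/GFP over all genes were also fewer than with every library kept, in both directions. The loss of calls was therefore not particular to the 86 genes. Both genotypes had positive differences for most of the 86 genes, 80 of 86 in Wfdc2 +/+ and 76 of 86 in GFP/GFP, against 38.9% and 32.2% of genes with reads. The called genes in GFP/GFP were the paralogs Rpl3l and Rpl39l, which voom did not call. The 2 within-genotype comparisons share no library in their differences, but their tests share 1 spread taken over all 8 libraries and are not independent.

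The second comparison was between genotypes. At P1.5 no gene of the 86 passed the adjusted threshold with limma or with voom, against 0% of all genes called higher and 0.0128% called lower with limma, and 2 of the 86 passed an unadjusted p of 0.05, 1 higher and 1 lower (against 3.75% and 7.56% of genes with reads), both of them paralogs with few reads. The median difference, GFP/GFP minus Wfdc2 +/+, was 0.22 over the 86 genes and -0.14 over genes with reads, with 67 of the 86 positive against 41%. It was 0.69 without P1.5 Wfdc2 +/+ replicate 1 and turned to -0.25 without P1.5 Wfdc2 +/+ replicate 2, and after quantile normalization it was -0.01. Its direction therefore depended on 1 library. In 14 of the 86 genes (16.3%) both GFP/GFP libraries lay above both Wfdc2 +/+ libraries, against 13.4% of genes with reads, and in 1 they lay below, against 22.4%.

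Apart from the paralogs, the largest positive difference at P1.5 was that of Rps13. Rps13 stood at 8.24 and 7.71 log2 RPKM in Wfdc2 +/+ and at 8.89 and 8.49 in GFP/GFP (0.71, adjusted p = 0.585), without overlap. The largest negative differences were those of Rpl15 (-0.50, adjusted p = 0.711), Rpl37 (-0.41, 0.795) and Rpl5 (-0.28, 0.788), a partner of the 5S rRNA, and those of Rpl37 and Rpl5 turned positive without P1.5 Wfdc2 +/+ replicate 1. That of Rpl15 was -0.21 without this library and -0.79 without P1.5 Wfdc2 +/+ replicate 2. Rpl15 stood at 8.70 and 8.13 in Wfdc2 +/+ and at 8.15 and 7.68 in GFP/GFP, with overlap.

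At E18.5 no gene of the 86 passed the adjusted threshold with limma or with voom, against 0% of all genes called higher and 0.0192% called lower with limma, and none passed an unadjusted p of 0.05, against 3.8% of genes with reads that were higher and 0.366% that were lower. The GFP/GFP libraries lay above both Wfdc2 +/+ libraries in 15 genes, against 28.1% of genes with reads, and below in 5, against 9.84%. The median difference was 0.12 over the 86 genes and over genes with reads, and 56 of the 86 were positive, against 62.3%. It was 0.39 without E18.5 GFP/GFP replicate 1, -0.19 without E18.5 GFP/GFP replicate 2, -0.09 with median centring and 0.13 after quantile normalization. Rps25 of the small subunit had the largest positive difference among the core genes, at 7.73 and 7.77 log2 RPKM in Wfdc2 +/+ and 8.31 and 8.35 in GFP/GFP. Its difference was 0.58, with an adjusted p near 1. Rpl30 (0.44) and Rps16 (0.40) followed, also without overlap between the genotypes. Rplp2 had the largest negative difference among the core genes (-0.78), set by its value of 5.92 in GFP/GFP replicate 1. Without that library it was -0.12.

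The change of the genotype difference between stages was not past the threshold for any of the 86 genes with limma or with voom, nor for any other gene (0% of all genes with limma), and 1 of the 86 was higher and 1 lower at an unadjusted p under 0.05, against 2.13% and 8.27% of genes with reads. The median of this difference of differences was 0.11 over the 86 genes and -0.28 over genes with reads, with 52 of the 86 positive against 37.3%, and it ran from -0.35 to 0.61 when each library was left out in turn and from -0.12 to 0.52 over the other settings. Among the core genes it was largest for Rplp2 (1.41, adjusted p = 0.597), at 0.75 without E18.5 GFP/GFP replicate 1 and 2.07 without E18.5 GFP/GFP replicate 2. In 2 paralogs, Rpl39l and Rps4y2, the genotypes did not overlap at either stage and went in opposite directions, against 10.4% of genes with reads.

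**Figure D5:**
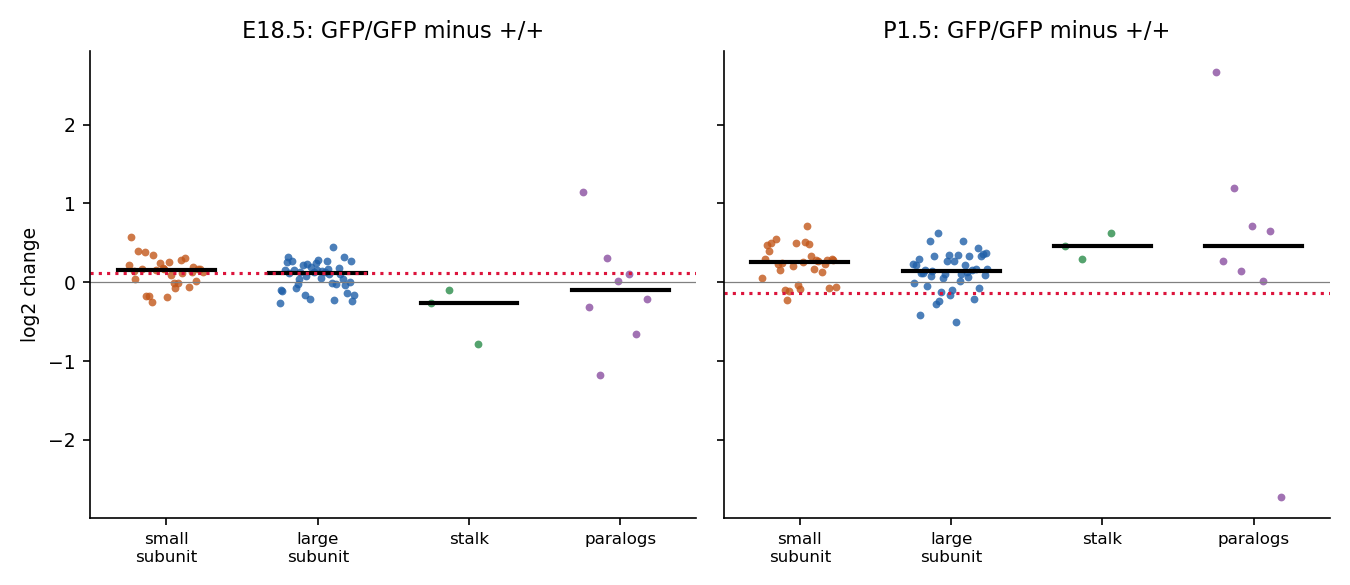
Genotype difference (log2, GFP/GFP minus Wfdc2 +/+) of each small-subunit, large-subunit, stalk and paralog gene at E18.5 and P1.5; black lines are class medians and dotted red lines the median of all genes with reads. Core genes lay between -0.78 and 0.58 at E18.5 and between -0.50 and 0.71 at P1.5 (medians of the small subunit 0.15 and 0.26). The points farthest from 0 at P1.5 are the low-count paralogs Rpl3l (2.67) and Rpl10l (-2.72).

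Paralogs differed from each other in level and in pattern. Rpl36al, a near copy of Rpl36a with 2 annotated exons in place of 5, stood at 6.62 and 6.66 log2 RPKM in E18.5 Wfdc2 +/+, 6.24 and 7.06 in E18.5 GFP/GFP, 8.43 and 7.08 in P1.5 Wfdc2 +/+ and 8.52 and 8.42 in P1.5 GFP/GFP. The stages did not overlap (1.46, SE 0.36, adjusted p = 0.052). Its reads were 19.1% and 20.8% of those of Rpl36a in E18.5 Wfdc2 +/+, 19.6% and 28.7% in E18.5 GFP/GFP, 28.5% and 29.1% in P1.5 Wfdc2 +/+ and 34.5% and 38.8% in P1.5 GFP/GFP. Reads of near copies may have been split or lost by the mapping, so that these levels are uncertain.

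The pairs Rpl36a with Rpl36al and Rps27 with Rps27l are shown at their starts, in the same window and with the same marking, because each pair encodes closely related proteins from separate promoters.
Rpl36a: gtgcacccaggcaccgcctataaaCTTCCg
Rpl36al: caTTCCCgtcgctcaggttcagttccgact
Rps27: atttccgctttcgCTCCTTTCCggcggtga
Rps27l: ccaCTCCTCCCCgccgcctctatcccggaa
They lie at chrX:134585639-134585668 (+), chr12:69184053-69184082 (-), chr3:90213634-90213663 (-) and chr9:66946071-66946100 (+). Rps27 and Rps27l both held runs of 9 pyrimidines, and Rpl36a and Rpl36al runs of 5, but at different places. The run of Rps27 crosses the RefSeq start and that of Rpl36a lies after it, while those of Rps27l and Rpl36al lie wholly before it.

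Rps27l, a target of p53, had 9.37% and 9.22% of the reads of Rps27 in E18.5 Wfdc2 +/+, 9.45% and 8.37% in E18.5 GFP/GFP, 3.17% and 10.6% in P1.5 Wfdc2 +/+ and 6.28% and 8.83% in P1.5 GFP/GFP. The low share in P1.5 Wfdc2 +/+ replicate 1 goes with Rps27, which reached 12.04 log2 RPKM there, its highest value, while Rps27l stood at 5.12. Rpl22l1, which can stand in for Rpl22, had between 14.4% and 22.1% of the reads of Rpl22, lowest in E18.5 GFP/GFP replicate 2 and highest in P1.5 Wfdc2 +/+ replicate 1. Rpl7l1, which acts in the processing of pre-rRNA, had between 2.75% and 5.30% of those of Rpl7 and the most negative stage difference of the set (-0.37, adjusted p = 0.249), which turned positive with median centring. Rps4y2, a copy of the Rps4 family on chromosome 6 that GENCODE annotates as a transcribed processed pseudogene and that overlaps Tmtc1, had between 1.26% and 3.21% of those of Rps4x.

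The remaining 3 paralogs had few reads. Rpl3l had 0 and 0 reads in E18.5 Wfdc2 +/+, 1 and 4 in E18.5 GFP/GFP, 8 and 4 in P1.5 Wfdc2 +/+ and 56 and 37 in P1.5 GFP/GFP. All P1.5 libraries lay above all E18.5 libraries once reads were scaled by the total. It was called higher at P1.5 over both genotypes (adjusted p = 0.0189, from 0.00683 to 0.077 over the other settings and left-out libraries) and within GFP/GFP (adjusted p = 0.0359, from 0.0158 to 0.184). Within Wfdc2 +/+ it was at least 3.13-fold higher at P1.5, over the floor of 3 reads per library. In GFP/GFP the ratio of P1.5 to E18.5 was 23.6, with a 95% exact interval of counting error from 9.75 to 74.3, and at P1.5 the ratio of GFP/GFP to Wfdc2 +/+ was 6.09, from 3.32 to 12.2 (unadjusted p = 0.0119 and adjusted p = 0.34 with limma). E18.5 GFP/GFP replicate 1, at 1 read, lay below the floor, so that 23.6 is no exact fold. Markers of heart muscle (8 genes, led by Myl7, a list added after the values were seen) took 0.0323%, 0.0209%, 0.0295% and 0.0671% of the reads in the E18.5 libraries and 0.0835%, 0.036%, 0.0729% and 0.0963% in the P1.5 libraries, and their part in the reads of Rpl3l was not tested.

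Rpl39l had 10 and 6 reads in E18.5 Wfdc2 +/+, 3 and 4 in E18.5 GFP/GFP, 8 and 4 in P1.5 Wfdc2 +/+ and 15 and 18 in P1.5 GFP/GFP. It was called higher at P1.5 within GFP/GFP (adjusted p = 0.0463, from 0.0168 to 0.244), where the ratio of the stages was 5.98 with a counting interval from 2.60 to 16.0. Rpl10l had 4 and 7, 7 and 3, 9 and 9 and 1 and 3 reads in the same order. At P1.5 its ratio of GFP/GFP to Wfdc2 +/+ was 0.175, from 0.043 to 0.530, and its adjusted p was 0.253 (unadjusted p = 0.00197). With GFP/GFP set at the floor of 3 reads per library, the level was 3.78-fold lower. With counts of this size the intervals are wide, and they cover counting error only.

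Levels of different genes were compared per kilobase of annotated mRNA, as the mean RPM (reads scaled by the library total) over the 4 libraries of a stage. At E18.5 the order was Rps27 (3279 RPM per kilobase), Rps14 (3032), Rpl23a (2567), Rps12 (2482), Rps4x (2304) and Rplp1 (2244). At P1.5 it was Rps14 (9054), Rps27 (6489), Rplp1 (6132), Rps12 (4860), Rpl41 (4587) and Rpl37a (3994), and the lead of Rps14 rested most on P1.5 Wfdc2 +/+ replicate 1, at 17860. Of neighbours in these orders, the mean log2 ratio was above its SD over the libraries for Rps14 over Rpl23a at E18.5 (0.22, SD 0.16) and for Rplp1 over Rps12 at P1.5 (0.31, SD 0.18), each higher in 4 of 4 libraries, and below it for the others. Over the 8 libraries the lowest core genes were Rps15a (121) and Rps20 (243), whose annotated mRNAs, at 5130 and 3706 bases, are the longest. Their low rank depends on these lengths. They had 133472 and 195003 reads, more than the 112697 of Rpl37, which stood at 646 with an annotated mRNA of 835 bases.

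Of the core genes, 4 lie on the X chromosome. Between replicates 1 and 2 of P1.5 Wfdc2 +/+, Rpl39, Rpl10 and Rps4x differed by 0.38, 0.17 and 0.44 on the log2 scale, against a median of 0.96 over the 73 autosomal core genes, and Rpl36a by 1.38. In E18.5 GFP/GFP the 4 genes differed by -0.26, -0.59, -0.35 and -0.27, against -0.62. Xist, which is expressed from the inactive X chromosome, had between 4121 and 90980 reads in the replicate 1 libraries and between 1 and 13 in the replicate 2 libraries, so that replicate number and X chromosome state cannot be told apart within a group. With replicate number as a block in the fit, the adjusted p of Rpl38 over both genotypes was 0.0674, and within GFP/GFP those of Rpl3l and Rpl39l were 0.0598 and 0.0664.

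Of ribosomal proteins with other names, Fau had a stage difference of 1.36 (adjusted p = 0.0747) and Gnb2l1 one of 0.10 (0.794), which turned to -0.59 after quantile normalization and to -0.05 without E18.5 GFP/GFP replicate 1. Of 16 other genes with terminal oligopyrimidine transcripts, mostly translation factors, 2 fell after birth (against 2.56% of all genes) and none rose, with a median of -0.32, against -0.38 over genes with reads, that turned to 0.15 with median centring. These were Pabpc1, the poly(A)-binding protein (-1.37, adjusted p = 0.0334), and Eif4b, a helicase cofactor (-1.09, adjusted p = 0.0408), and both differences were negative under each scaling, though neither was called with centring by coding length (adjusted p 0.0528 and 0.128) or without E18.5 GFP/GFP replicate 1 (0.098 and 0.106), nor was Eif4b with median centring (0.0732). Of 35 genes of ribosome biogenesis, 1 rose (against 2.58% of all genes) and none fell, with a median of -0.06 that turned to 0.41 with median centring, and the called gene was Eif6, which keeps the subunits apart (1.25, adjusted p = 0.0457, and 0.118 without E18.5 GFP/GFP replicate 1). Of 19 genes that control translation, such as those of the mTOR pathway, none was called and 16 had negative differences, as did 67% of genes with reads (median -0.71 against -0.38, and -0.24 against 0.09 with median centring). Without P1.5 Wfdc2 +/+ replicate 2 the calls in these 3 lists were 4 lower, 2 higher and 8 lower, and 1 higher and 14 lower, where 10.6% of all genes were called higher and 35% lower. The coding sequences of Pabpc1 and Eif4b have 1908 and 1833 bases.

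Named ribosomal protein pseudogenes had few reads. The 60 such rows together held between 0.914 and 10.8 RPM per library, and of the 54 that passed the filter 11 had no reads in any library and 3 had a mean of at least 10, so that no difference is given over them. Rpsa-ps10 had 1 and 0 reads in E18.5 Wfdc2 +/+, 75 and 33 in P1.5 Wfdc2 +/+ and 0 in each GFP/GFP library. It was called higher at P1.5 over both genotypes (3.36, adjusted p = 0.008), though within GFP/GFP it had no reads at either stage, and lower in GFP/GFP at P1.5 (adjusted p = 0.0346). The last call was lost with median centring (adjusted p = 0.119), quantile normalization (0.0955), the total without abundant genes (0.0533), centring by coding length (0.0867), voom (0.137) and without E18.5 GFP/GFP replicate 1 (0.158). Whether such reads came from the pseudogene or from Rpsa, which is nearly identical, was not tested. Of the 86 genes, 19 overlap another deposited gene, 3 of them on the same strand. Rpl13 is one, and Gm20388, which overlaps it, was given 820306 reads against 332587 for Rpl13. Whether strand was used in the counting is not given in the sources used here.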

How the data were processed

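Total lung RNA was made into libraries with a directional kit and sequenced on either of 2 Illumina instruments; which library ran on which is not given in the sources used here. Per the labels and the methods of the study, base calls were made with CASAVA 1.8, reads were trimmed with Trim Galore 0.4.0 and mapped to mm10 with TopHat2 2.1.1, and SeqMonk gave the deposited values, log2 RPKM of 25965 genes with 1 column per library. Set against the recovered reads, the kilobases proved to be the whole genomic span, and genes without reads carry the value of 0.9 read. The log2 RPKM step by whole reads, so reads were recovered, and from 99.86% to 99.97% of the values fell within 0.02 of a whole number. Library totals, in the order replicate 1 then 2, were 34429560 and 31169158 reads in E18.5 Wfdc2 +/+, 37209333 and 29246203 in E18.5 GFP/GFP, 21714474 and 19457647 in P1.5 Wfdc2 +/+ and 23163504 and 29257003 in P1.5 GFP/GFP. Where reads are few, 3 reads were taken as the limit of detection. Intervals on counts are exact and cover counting error only.

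Groups were read from the labels. Genes averaging 0.05 RPKM or more (15627) entered limma 3.58.1 in R 4.3.3 on the log2 RPKM as deposited, with no pseudocount, 1 mean per group, a spread shared by the 8 libraries and a prior that follows the level, which left 4 residual degrees of freedom. All 86 ribosomal protein genes passed this filter. Two-sided p-values were adjusted over all genes tested (Benjamini-Hochberg), and 0.05 was the threshold. For single values no exact permutation test was run, since 2 libraries against 2 give p = 0.333 at the lowest. P-values measure the spread between the libraries, described as duplicate animals. Python 3.11.15 served for tables, through pandas 2.3.3, numpy 2.4.6 and scipy 1.17.1, and matplotlib 3.10.9 drew the figures.

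Coding and mRNA lengths came from GENCODE M21 (85 of the 86 genes) and start sites from RefSeq on GRCm38.p6. The lengths are those of a single protein-coding transcript per gene, picked mainly for the longest coding sequence. The genes, lists, tests and alternatives were chosen with earlier results of these data known. Of the other lists, genes called between stages over both genotypes are described, up to 4 per list, apart from Tnni3 of heart muscle. Genes called only within GFP/GFP, such as Nhp2, Tsc1 and Sftpa1, are not. Besides these and Wfdc2, the genes named are those with the 4 largest increases and decreases in each comparison, the 5 with the most reads, paralog pairs, stalk and X-linked genes and Rpsa. Rps7, among the 4 largest decreases of the difference of differences, is not described. Rpl41, Rps21, Rps29, Rpl3, Rpl7 and the genes of the level order were picked once their values were known. The result of 1 further gene is not reported here. The settings tried instead were pseudocounts (0.1 and 1 RPKM), other filters (none, or 0.5 RPKM on average), centring on the median, quantile normalization, a total without the ribosomal protein genes and the 10 most abundant genes, the libraries of 1 stage alone, a replicate block, voom on the recovered reads, each library left out in turn and, added after seeing the data, centring within classes of coding length, a filter of 10 reads on average, and both together. In simulated data in which 200 of 15627 genes differed by a log2 change of 4 between genotypes at P1.5, limma and voom both found all 200. At a dispersion of 0.01 they made 24 and 2 false calls, and at 0.1 they made 10 and 1. The changed genes were drawn from those with many reads, and no shift shared by the genes of a library was simulated. The change of 4 was far above the largest genotype difference of a core gene at P1.5 (0.71). The simulation therefore cannot tell how often differences of the size seen here would be found.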

Additional observations from a re-analysis of the deposited data

Results flagged for a closer look

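Rpl39l and Rps4y2 were singled out because both GFP/GFP libraries lay below both Wfdc2 +/+ libraries at E18.5 and above them at P1.5, as 10.4% of genes averaging 10 or more reads lay on opposite sides at the 2 stages. The difference of differences was 2.37 on the log2 scale for Rpl39l (-1.17 at E18.5 and 1.198 at P1.5, adjusted p = 0.343 with limma) and 1.30 for Rps4y2 (-0.65 and 0.65, adjusted p = 0.546), so that neither passed the test. Rpl39l had between 3 and 18 reads per library. Rps4y2 had 1981 and 2042 reads in E18.5 Wfdc2 +/+, 1013 and 1644 in E18.5 GFP/GFP, 821 and 1372 in P1.5 Wfdc2 +/+ and 2128 and 2096 in P1.5 GFP/GFP, and the mapping may have split reads between it and Rps4x, a close relative.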

How the results depend on the processing

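Of the 267 recomputed counts, medians and shares, 223 stayed within the set bounds. These bounds allow a change of sign. The genotype median at E18.5 was held to be within them though it ran from -0.19 to 0.39. Counts of 0 between genotypes that stayed at 0 are also among the 223. The number of the 86 genes called between stages over both genotypes, 2, was 0 with a pseudocount of 1 RPKM, 1 without a filter, 8 of 83 (9.64%) with a mean of at least 0.5 RPKM, 5 after quantile normalization (3 higher and 2 lower), 1 with the replicate block, 1 with centring by coding length, 4 with a mean of at least 10 reads and 1 with both, and ran from 0 to 49 when each library was left out. The share of all genes called higher was 1.71%, 0.801%, 7.86%, 4.54%, 1.16%, 4.38%, 5.80% and 7.37% under these settings in the same order, and from 0.128% to 10.6% with libraries left out. Within GFP/GFP, 2 became 0 with a pseudocount of 1 RPKM, 1 without a filter, 1 with a mean of at least 0.5 RPKM, 5 after quantile normalization (2 higher and 3 lower), 0 with the replicate block, 0 with voom, 1 with centring by coding length and 1 with a mean of at least 10 reads, and ran from 0 to 14. The share of all genes called higher was 0.864%, 0.470%, 4.42%, 2.41%, 0.480%, 0.397%, 3.67% and 3.47% in that order. Within Wfdc2 +/+ the count ran from 0 to 13. The stage median became 1.22 with median centring and 0.073 after quantile normalization (0.49 to 0.98 with libraries left out), 0.083 after quantile normalization in Wfdc2 +/+ (0.16 to 1.13), and 1.43 and -0.027 in GFP/GFP (0.52 to 1.05). The genotype median ran from -0.25 to 0.69 at P1.5 and from -0.19 to 0.39 at E18.5, and the difference of differences from -0.35 to 0.61, with 0.52 under median centring. The differences in share ran from 3.97 to 6.996 points between stages, from -3.72 to 5.36 between genotypes at P1.5 and from -1.02 to 2.27 at E18.5.

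Of 962 recomputed values of single genes, 25 changed sign. Between stages over both genotypes, Rpl7l1 (0.10), Rpl6 (0.29), Rpl10 (0.31) and Rpl4 (0.34) did so with median centring, Rpl10 (0.017) and Rpl4 (0.044) with the total without abundant genes and Rpl4 with centring by coding length (0.24, and 0.23 over genes of at least 10 reads). Within Wfdc2 +/+ these were Rps4y2 (0.016) and Rpl3 (0.26) with median centring, Rpl3 with the total without abundant genes (0.14) and by coding length (0.21, and 0.19 over genes of at least 10 reads), and with 1 library left out Rps4y2 (from -0.70 to 0.20) and Rpl3 (from -0.10 to 0.089). Within GFP/GFP they were Rpl7l1 (0.25), Rpl4 (0.36) and Rpl10 (0.36) with median centring and Rpl4 by coding length (0.20, and 0.21 over genes of at least 10 reads). With 1 library left out, the genotype differences of Rpl37 (from -1.28 to 0.45) and Rpl5 (from -0.61 to 0.052) at P1.5 and Rpl3l (from -0.032 to 2.32) at E18.5 and the difference of differences of Rpl37 (from -1.53 to 0.19) turned. The cause of these changes was not tested.

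The study calls its controls littermates, but replicate numbers are not said to pair animals. Deviations of same-numbered libraries correlated between genotypes at 0.23 at E18.5 and 0.21 at P1.5 (0.17 and 0.19 outside the X and Y chromosomes). Across stages they correlated between -0.29 and 0.078. Replicate number also splits Xist in every group. With the replicate block, Rpl38 over both genotypes (adjusted p = 0.0674 with limma) and Rpl3l (0.0598) and Rpl39l (0.0664) within GFP/GFP were no longer called. Nor were Wfdc2 at P1.5 (0.0777) and E18.5 (0.0753), Rpsa-ps10 between genotypes at P1.5 (0.0777), or Eif4b (0.059), Eif6 (0.065), Pdgfra (0.0616), 16 of the 18 genes of oxidative phosphorylation (0.0509 to 0.0677) and all 4 of the mitochondrial ribosome (0.0589 to 0.0656) between stages. With a block within each stage, Wfdc2 was called at both (0.000266 and 0.000217). Over all genes, the 403 called higher and 400 called lower at P1.5 became 181 and 106 with the block, 1278 and 564 with median centring, 741 and 943 with a mean of at least 0.5 RPKM and 824 and 1334 with one of at least 10 reads, and ran from 20 to 1654 and from 7 to 5471 when each library was left out. With 2 libraries a group and 4 degrees of freedom, differences of the size seen between genotypes could not be separated from the spread between libraries. When a library is left out, its group rests on 1 library that is taken to vary as the others do.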

Other observations

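Genes of the respiratory chain and of the mitochondrial ribosome were also higher on balance at P1.5. Of 83 genes of oxidative phosphorylation tested, 18 rose after birth and none fell, against 2.58% of all genes that rose, with a median of 0.86 over both genotypes. Among them were Cox8b, a heart and muscle form of a cytochrome oxidase subunit (3.04, adjusted p = 0.0258), Ndufa5 of complex I (1.76, adjusted p = 0.031), and Cox6c (1.29, adjusted p = 0.0336) and Cox7c (1.14, adjusted p = 0.0354) of complex IV. Their median was 0.58 after quantile normalization, where 14 rose and 1 fell (against 4.54% and 3.63% of all genes), and 0.63 with centring by coding length, where 3 of 83 rose, a share no higher than the 4.38% of all genes. With replicate number as a block, Cox8b and Ndufa5 were called and the other 16 were not. None was called without E18.5 GFP/GFP replicate 1, and 52 rose and 4 fell without P1.5 Wfdc2 +/+ replicate 2, where 10.6% of all genes rose and 35% fell. Of 76 genes of the mitochondrial ribosome, 4 rose (against 2.58% of all genes) and none fell (Mrpl12, Mrpl33, Mrpl20 and Mrpl41), with a median of 0.32, and 0.29 after quantile normalization. In this list 24 rose and 4 fell without P1.5 Wfdc2 +/+ replicate 2, and none was called without E18.5 GFP/GFP replicate 1. The 18 genes of oxidative phosphorylation that rose have coding sequences between 189 and 516 bases long, and the part of length in their differences was not tested.

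Among markers of immune cells, 3 of 9 tested rose after birth with limma, where 2.58% of all genes rose and 2.56% fell: S100a8 (4.05) and S100a9 (4.23) of neutrophils and Cd79a (4.04) of B cells. Of 12 epithelial markers Sftpd (2.89) and Scgb1a1 (4.29) rose and none fell, with a median of 0.0084 over the list and 7 of the 12 positive, and Pdgfra was the 1 of 6 mesenchymal markers that fell, by 1.57. Without E18.5 GFP/GFP replicate 1, 1 of the 9 immune markers, 2 of the epithelial and none of the mesenchymal markers were called, and without P1.5 Wfdc2 +/+ replicate 2 there were 5 epithelial markers that rose and 2 that fell. No marker of proliferation was called (median -1.53), although all 8 had negative differences, as did 67% of genes averaging 10 or more reads. Without P1.5 Wfdc2 +/+ replicate 2, 7 of the 8 fell, where 35% of all genes fell.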
